A study of Rattus norvegicus with 8 samples.

Results

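Transcripts of heme synthesis, heme breakdown and the heme-binding plasma protein hemopexin were measured in the immature rat ovary. The members were Alas1, Alad, Uros, Urod, Cpox, Ppox and Fech of the synthesis route, Hmox1 of the breakdown route, and Hpx. They were taken as every probe of the array whose gene name in the scanner files equals a member, which gave 9 of 26214 gene names with 1 probe each. The choice of these genes was made with their differences between the groups known, so their levels and differences are given as a description without a test.

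Female rats aged 26 days received a subcutaneous injection of 50 IU PMSG, pregnant mare serum gonadotropin, which acts like follicle-stimulating and luteinising hormone. The hormone was given in 0.2 ml of buffer with albumin, and the control animals received 0.2 ml of that buffer alone. Ovaries were collected after 48 h, at an age of 28 days, and 500 ng of total RNA per sample was labelled and hybridised to 1-colour Agilent arrays, 4 labelled control and 4 labelled PMSG. The labels do not name a strain, so none is given here. Nor do they say whether the replicates of a group came from separate animals, so the p-values measure only the spread between these samples. Directions are those of the labels. Several genes whose gonadotropin response is well known ran against it here. Cyp11a1, for the cholesterol side-chain cleavage enzyme, and Lhcgr, for the luteinising hormone receptor, were lower under the label PMSG. Amh, for anti-Mullerian hormone, was higher. Among the other ovarian genes given below, Star was lower and Insl3 higher. Whether the group labels were exchanged was not tested; if they were, every direction given here would turn.

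Heme is an iron-holding ring that sits in hemoglobin, in the cytochromes of the respiratory chain and in cytochrome P450 enzymes, which make steroids in the ovary. Its synthesis begins in the mitochondrion, where the product of Alas1 joins glycine and succinyl-CoA, runs through several steps in the cytosol, and ends in the mitochondrion, where ferrochelatase inserts iron. Heme oxygenase opens the ring and releases iron, carbon monoxide and biliverdin, and hemopexin and haptoglobin are plasma proteins that bind free heme and free hemoglobin.

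All values are log2 spot signals minus the 75th percentile of log2 signal of the same array, so 0 means a probe as bright as that percentile. Because probes differ in brightness for the same amount of RNA, the level of a probe is compared only with itself on other arrays. Differences are PMSG-labelled minus control-labelled, and the standard errors (SE) come from a limma fit over all tested probes. The tissue is a mixture of cells, in which fewer cells of a type and less RNA per cell cannot be told apart.

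The results turn most on Hpx and Hmox1, so the probes that measured them are shown, with all letters in lower case. Both are 60 bases long and were placed by the scanner files on the rat build rn4. The Hpx probe lies at chr1:163319663-163319722 on the minus strand and the Hmox1 probe at chr19:13969336-13969395 on the plus strand. Their exon or UTR position was not analysed here.
Hpx probe: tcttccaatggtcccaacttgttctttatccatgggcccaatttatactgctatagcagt
Hmox1 probe: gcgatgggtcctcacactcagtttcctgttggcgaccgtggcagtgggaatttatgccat

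The bases before the transcription start are shown for Hpx, the member with the largest difference, and for Alas1, the gene of the first and usually limiting step. Both are from RefSeq on the assembly GRCr8, which matched 7 of the 9 members. The Hpx stretch is the 250 bases at chr1:169352156-169352405 and the Alas1 stretch the 250 bases at chr8:115768643-115768892, both on the minus strand and written along the gene. Capitals mark matches to 9 short motifs searched on both strands, described next.
Hpx upstream: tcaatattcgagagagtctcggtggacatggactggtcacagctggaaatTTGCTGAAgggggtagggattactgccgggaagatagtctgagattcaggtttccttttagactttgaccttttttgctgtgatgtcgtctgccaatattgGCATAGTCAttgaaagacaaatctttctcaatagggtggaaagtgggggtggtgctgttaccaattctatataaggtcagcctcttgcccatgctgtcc
Alas1 upstream: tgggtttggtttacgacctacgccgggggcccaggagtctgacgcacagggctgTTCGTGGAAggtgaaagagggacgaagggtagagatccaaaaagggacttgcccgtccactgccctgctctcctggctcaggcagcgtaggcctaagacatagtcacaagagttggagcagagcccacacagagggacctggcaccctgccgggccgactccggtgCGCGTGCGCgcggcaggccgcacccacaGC

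The search covered 250 bases before and 50 after the start of each gene. In the Hpx stretch the capitals beginning 200 bases before the start match the C/EBP motif TTGCNNAA, which 10.6% of 33469 rat promoter windows of this length also held. Those beginning 99 bases before the start match, on the minus strand, the core TGACNNNGC of the antioxidant response element, the site bound by NFE2L2 and BACH1 with small MAF proteins. It was held by 12.1% of the windows. In the Alas1 stretch the capitals at 196 bases before the start match the STAT motif TTCNNNGAA, held by 8.87%. Those at 30 bases before the start match the motif GCGCANGCG of NRF1, nuclear respiratory factor 1, held by 5.80%, and the closing GC opens a pair of overlapping NRF1 matches that run across the start. Of the other members, Alad had 2 matches and Urod 1 match to the E-box CACGTG (6.42% of windows), and Fech 1 match to the GATA motif AGATAA (11.6%). The cAMP response element TGACGTCA (1.83%), the NR5A motif TCAAGGTCA (0.433%) and the sterol element TCACNCCAC (1.12%) matched in 0 of the 7 member windows. Each match is a string of letters, not a measured site.

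Over the whole series, the 75th percentile of signal lay between 769 and 1103 and the share of probes well above background between 80.8% and 84.6% on the 8 arrays, which shared 1 slide and 1 scan. PMSG array 4 had the lowest array weight in limma, 0.279 against 0.673 to 1.95 for the others. Of 25303 probes tested, 8658 (34.2%) passed the limma adjusted p threshold of 0.05, 16.6% lower and 17.6% higher in PMSG-labelled arrays. Higher probes made up 51.4% of these and 34.5% when arrays were centred on their median instead. The median difference of all tested probes was 0.11, and median centring moved it to -0.05.

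All 9 members were tested and were well above background on 8 of 8 arrays. Of the 9, 6 were lower and 3 higher in PMSG-labelled arrays, and 2, Hpx and Hmox1, differed by at least 2-fold, as did 14.0% of all tested probes. Limma called 5 members, Hpx, Hmox1, Uros, Cpox and Fech, all lower, beside 34.2% of all tested probes, with Uros called under 8 of 18 alternatives; the members were picked from this contrast, so nothing is read from that count. The groups did not overlap for 7 members, 5 lower and 2 higher, beside 36.6% of all probes. The median difference of the 9 was -0.67.

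**Figure D1:**
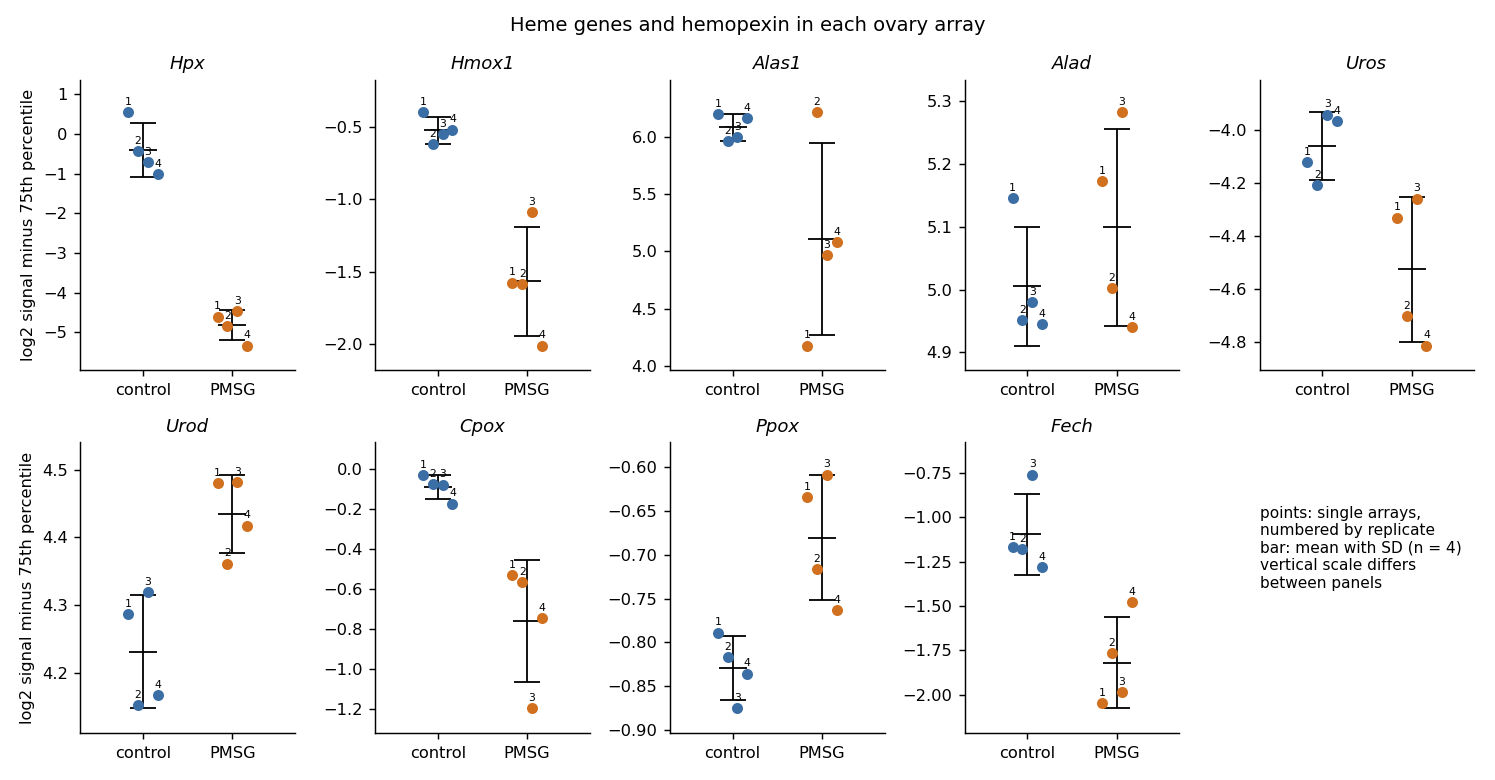
Level of each member gene on every array, as log2 signal minus the array's 75th percentile, for 4 control-labelled (blue) and 4 PMSG-labelled arrays (orange). Points are single arrays with their replicate number, bars are the mean with SD, and the vertical scale differs between panels. Hpx and Hmox1 lie apart between the labels, Alas1 has PMSG array 2 above all controls and the other 3 below, and Alad overlaps.

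Alas1, which encodes the housekeeping form of 5-aminolevulinate synthase, stood at 6.20, 5.96, 6.0 and 6.16 on control-labelled arrays 1 to 4. On PMSG-labelled arrays 1 to 4 it stood at 4.18, 6.21, 4.97 and 5.08. Arrays 1, 3 and 4 of the PMSG label were thus below every control-labelled array, while array 2 was above all of them. The means were 6.08 ± 0.12 (SD, n = 4) and 5.11 ± 0.84 (SD, n = 4), a difference of -0.97 (SE 0.37), and leaving out each array in turn gave -1.34 (without PMSG array 2) to -0.66 (without PMSG array 1). Its position is listed as unmapped in the scanner files.

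Alad, for the enzyme that condenses aminolevulinate to porphobilinogen, stood at 5.15, 4.95, 4.98 and 4.95 against 5.17, 5.0, 5.28 and 4.94 (chr5:79505653-79505712, minus strand, rn4). The labels overlapped throughout. The means of 5.01 ± 0.09 and 5.10 ± 0.16 (SD, n = 4 each) differed by 0.09 (SE 0.11), which turned to -0.07 under median centring.

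Uros encodes uroporphyrinogen III synthase, which closes the ring. It stood at -4.12, -4.21, -3.94 and -3.96 against -4.33, -4.70, -4.26 and -4.82, so that each PMSG-labelled array was below each control-labelled array, by a gap of 0.05 at the nearest. The difference was -0.47 (SE 0.15). Its unscaled signals were 57.1 to 70.7 on control-labelled and 38.5 to 48.8 on PMSG-labelled arrays, and its difference was -0.15 with normexp background correction and -0.69 with quantile normalization. The listed positions span 973 bases (chr1:193188294-193189266, minus strand, rn4) for a probe of 60 bases.

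Urod, for the decarboxylase that follows in the cytosol, stood at 4.29, 4.15, 4.32 and 4.17 against 4.48, 4.36, 4.48 and 4.42 (chr5:137296424-137296483, minus strand, rn4). All PMSG-labelled arrays were above all control-labelled ones, by a gap of 0.04. The difference of 0.20 (SE 0.09) was 0.04 under median centring and 0.31 under quantile normalization, so its size followed the scaling.

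Cpox encodes coproporphyrinogen oxidase, which acts in the mitochondrial intermembrane space. It stood at -0.03, -0.07, -0.08 and -0.17 against -0.53, -0.56, -1.20 and -0.74 (chr11:42748792-42748851, minus strand, rn4). All 4 PMSG-labelled arrays were below the control range, array 3 the most. The means of -0.09 ± 0.06 and -0.76 ± 0.31 (SD, n = 4 each) gave a difference of -0.67 (SE 0.15), and leaving out each array in turn gave -0.75 to -0.53.

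Ppox, for protoporphyrinogen oxidase of the next step, stood at -0.79, -0.82, -0.88 and -0.84 against -0.63, -0.72, -0.61 and -0.76 (chr13:87170645-87170704, minus strand, rn4). The labels were separated by a gap of 0.03, with the PMSG-labelled arrays above. The difference of 0.15 (SE 0.08) was close to the median of all probes, 0.11, and turned to -0.02 under median centring.

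Fech encodes ferrochelatase, an iron-sulfur protein that inserts iron into the ring. It stood at -1.17, -1.18, -0.76 and -1.28 against -2.05, -1.76, -1.98 and -1.48 (chr18:60680214-60680273, minus strand, rn4). All PMSG-labelled arrays were lower than all control-labelled ones, among which array 3 was the highest. The means were -1.10 ± 0.23 and -1.82 ± 0.26 (SD, n = 4 each), with a difference of -0.72 (SE 0.17), or -0.61 without control array 3.

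Among the 7 synthesis members, Alad, Urod and Ppox had differences above 0, and those of Alad and Ppox turned below it under median centring.

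**Figure D2:**
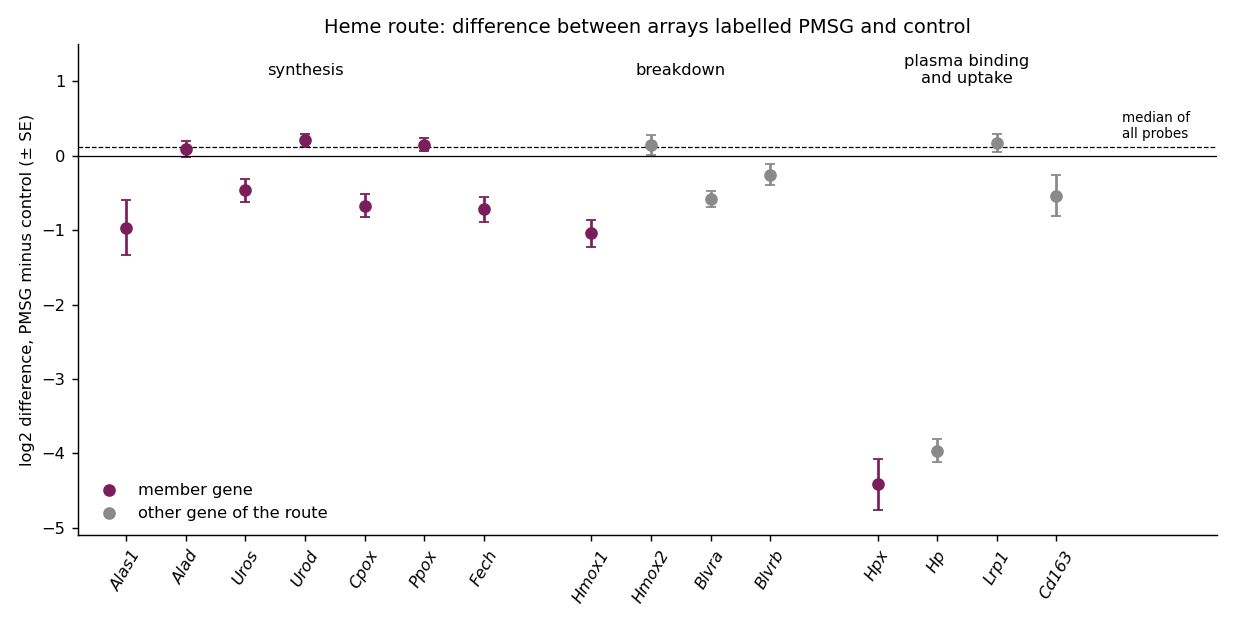
Log2 difference, PMSG-labelled minus control-labelled (vertical axis, with SE, n = 4 against 4), for genes ordered along heme synthesis, breakdown and plasma binding. Purple points are members and grey points other genes of the route; the dashed line is the median of all tested probes, 0.11. Hpx at -4.42 and Hp at -3.96 lie far below the rest, and Alad, Urod, Ppox, Hmox2 and Lrp1 lie near the dashed line. Some genes of these lists, among them Lrp2 and Cubn, are not drawn.

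Red cell precursors express the synthesis route strongly, so their markers are given beside it. Of 8 such genes tested, 1 fell and 0 rose. This was Alas2, the red cell form of aminolevulinate synthase, which stood at 1.76, 1.80, 2.49 and 1.63 against 0.08, 0.69, 0.75 and 0.62, and fell by 1.38 (SE 0.22, limma adjusted p = 0.00224). The summed level of the markers, in multiples of the 75th percentile signal, was 190 to 239 on control-labelled and 151 to 221 on PMSG-labelled arrays. Most of that sum came from Hba-a2 and Hbb, so it says little of the other markers. Hba-a2 and Hbb, for hemoglobin chains, differed by -0.20 and -0.13 (limma adjusted p = 0.288 and 0.571), and their other probes by -0.77 and -0.97. Transcripts of near-identical globin copies may not be separated by these probes. Control array 3, the highest for Fech, was also the highest for Alas2 and for the globin chaperone gene Ahsp, at 2.85 against 0.62 to 1.10 on the other control-labelled arrays. The part of these cells in the synthesis values was not tested.

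Hmox1 encodes the inducible heme oxygenase and was measured by 10 spots on each array, whose SD lay between 0.03 and 0.10. It stood at -0.40, -0.62, -0.55 and -0.52 on control-labelled arrays and at -1.57, -1.58, -1.09 and -2.01 on PMSG-labelled arrays. The highest PMSG-labelled array lay 0.47 below the lowest control-labelled one. The means of -0.52 ± 0.09 and -1.56 ± 0.38 (SD, n = 4 each) differed by -1.04 (SE 0.18), which is 2.06-fold, and leaving out 1 array gave -1.20 to -0.89. Unscaled signals were 684 to 792 against 269 to 361.

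The other breakdown genes were tested. Hmox2, the constitutive heme oxygenase, stood at 0.87, 0.83, 0.88 and 1.03 against 0.90, 0.82, 1.06 and 1.41, which overlap (difference 0.14, SE 0.14, limma adjusted p = 0.446; -0.02 under median centring). Blvra, for biliverdin reductase A, fell by 0.58 (SE 0.11, limma adjusted p = 0.00435), from -0.27 ± 0.10 to -0.85 ± 0.15 (SD, n = 4 each). Blvrb, for biliverdin reductase B, differed by -0.25 (SE 0.14, limma adjusted p = 0.195).

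Macrophages are a known site of Hmox1 and of Cd163, the receptor for haptoglobin bound to hemoglobin. Of 10 macrophage markers tested, Cd68, Ptprc, Aif1 and Laptm5 (4) rose and 0 fell in PMSG-labelled arrays, and their summed level was 8.33 to 10.6 against 12.8 to 14.2. Cd68 lost its call under median centring, without the filter on dim probes, and without control array 1, 2 or 4 or PMSG array 1, 2 or 3. Cd14, Mrc1 and Msr1 differed by -0.29, -0.36 and -0.73 and did not pass. Cd163 itself differed by -0.54 (SE 0.28, limma adjusted p = 0.164). Aif1 and Laptm5, the brightest of these markers, weighed most in the sum. Their means were 1.47 and 1.80 on control-labelled and 2.15 and 2.45 on PMSG-labelled arrays. The part of macrophages in the Hmox1 values was not tested.

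Hpx encodes hemopexin, which carries heme to the receptor LRP1 and is made mainly by the liver. In these ovaries it stood at 0.55, -0.43, -0.70 and -1.02 on control-labelled arrays and at -4.61, -4.85, -4.46 and -5.34 on PMSG-labelled arrays. The labels lay 3.44 apart at the nearest, and control array 1 was the highest. The means of -0.40 ± 0.68 and -4.81 ± 0.39 (SD, n = 4 each) differed by -4.42 (SE 0.34), which is 21.4-fold, and this was the 11th lowest of 25303 differences.

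The Hpx probe had a single spot. Its unscaled signals were 545 to 1530 on control-labelled and 26.7 to 40.3 on PMSG-labelled arrays, and it counted as well above background on all 8. The dimmest single spot counted so lay between -6.70 and -6.16 on the scaled arrays, under every Hpx value. Normexp background correction, which adds an offset of 50 and draws dim signals together, gave -3.05, and leaving out 1 array gave -4.62 to -4.10.

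Hp, for haptoglobin, is not a member and was tested beside it. It stood at 3.15, 2.98, 2.81 and 2.82 against -0.87, -1.07, -1.38 and -0.79, and fell by 3.96 (SE 0.15, limma adjusted p = 1.16e-05), which is 15.6-fold. Lrp1, the hemopexin receptor, stood at 0.35, 0.39, 0.14 and 0.11 against 0.46, 0.44, 0.20 and 0.56 and overlapped between the labels (difference 0.17, SE 0.12, limma adjusted p = 0.294; 0.00 under median centring). Of 5 genes of plasma binding and uptake tested beside Hpx, Hp fell and 0 rose. Cubn and Cd163 did not pass. Nor did Lrp2, at a difference of 0.93 (SE 0.32, limma adjusted p = 0.0551), whose other probe differed by 0.14. Lrp2 passed as higher under 5 of the 17 alternatives that keep probes apart, and Cd163 as lower under 1.

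Hepatocyte markers are given because Hpx and Hp are abundant in liver. Of 9 tested, 2 fell and 2 rose, and their summed level was 5.51 to 5.82 on control-labelled and 5.08 to 7.98 on PMSG-labelled arrays. Most of that sum came from Ahsg, the brightest of them, so it says little of the other markers. Ahsg had means of 2.28 and 2.60 (limma adjusted p = 0.115), and its other probe differed by 1.09. Apoh was well above background on 0 of 8 arrays, and Alb, the albumin gene, on 7 of 8, at -5.27, -8.74, -3.93 and -5.50 against -4.35, -3.92, -3.55 and -6.12. Ttr fell by 3.24 (SE 0.25, limma adjusted p = 1.11e-04) and Apoa1 by 2.27 (SE 0.28, limma adjusted p = 6.69e-04). F2 rose by 1.78 and Serpina1 by 0.76 (limma adjusted p = 5.80e-04 and 0.00549). The part of liver-type expression in the Hpx values was not tested.

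Of 13 acute phase and plasma protein genes tested, 3 fell and 1 rose, with a median difference of 0.01. Orm1, for alpha-1-acid glycoprotein, stood at -0.55, -1.15, 0.17 and -0.65 against -4.13, -5.43, -3.92 and -4.69 and fell by 3.99 (SE 0.38, limma adjusted p = 2.50e-04). Cebpb and Cebpd, for transcription factors of the C/EBP family, fell by 1.24 (SE 0.19, limma adjusted p = 0.00173) and 0.81 (SE 0.11, limma adjusted p = 0.00112). The Hpx stretch held a letter match to the motif of this family, and binding there was not tested. Il6st, for the shared receptor chain of interleukin-6 signals, rose by 0.52 (limma adjusted p = 0.0225) but not past the threshold under median centring or without control array 1 or 2. The other 9 genes did not pass. Their differences ran from -0.51 (Serpina3n) to 0.78 (C3), with Lcn2 at 0.01 and Fgg at 0.25.

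**Figure D3:**
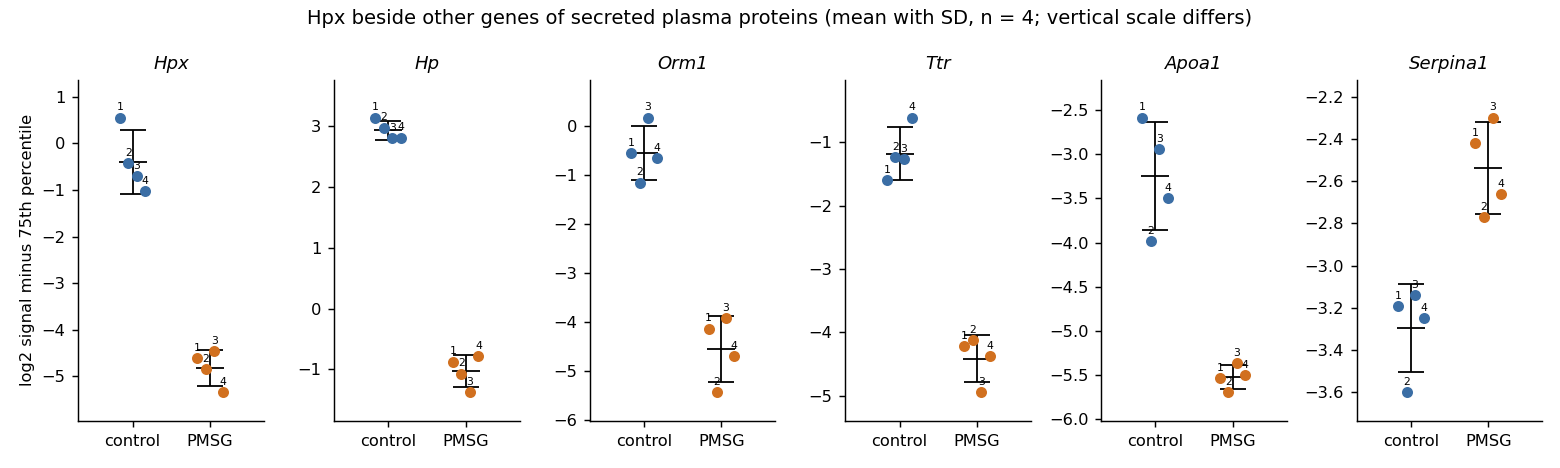
Hpx and 5 other genes of secreted plasma proteins, each as log2 signal minus the 75th percentile on every array (points with replicate numbers; bars are mean with SD, n = 4; vertical scale differs). The genes beside Hpx were picked from those past the threshold after their values were seen. Hp, Orm1, Ttr and Apoa1 are lower and Serpina1 higher in PMSG-labelled arrays.

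Markers of ovarian cell types are given for the same arrays. Of 5 theca and luteal markers, 3 fell (Star, Cyp11a1 and Lhcgr) and 1 rose (Insl3), with summed levels of 150 to 174 against 30.7 to 70.8. Cyp11a1 weighed most in that sum on control-labelled arrays (mean 6.59) and Cyp17a1 on PMSG-labelled arrays (mean 4.83). All 5 oocyte markers tested rose, with sums of 2.29 to 4.12 against 8.09 to 17.4. Of 4 granulosa markers 1 rose (Amh), with sums of 68.4 to 106 against 64.2 to 85.3. The part of these markers in the member values was not tested.

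PMSG-labelled arrays varied more among themselves than control-labelled arrays over all probes, and the members shared this. The SD was larger in PMSG-labelled arrays for 73.3% of all tested probes and for 7 of 9 members, and the median SD of all probes was 0.16 for control and 0.27 for PMSG. Hpx and Urod were the exceptions. Hpx, Hmox1, Alad, Uros and Ppox were each lowest on PMSG array 4 among the PMSG-labelled arrays and each highest on PMSG array 3. These arrays had 75th percentile signals of 1082 and 769, and the part of that difference was not tested. Alas1 and Fech were lowest on array 1, Urod on array 2 and Cpox on array 3.

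**Figure D4:**
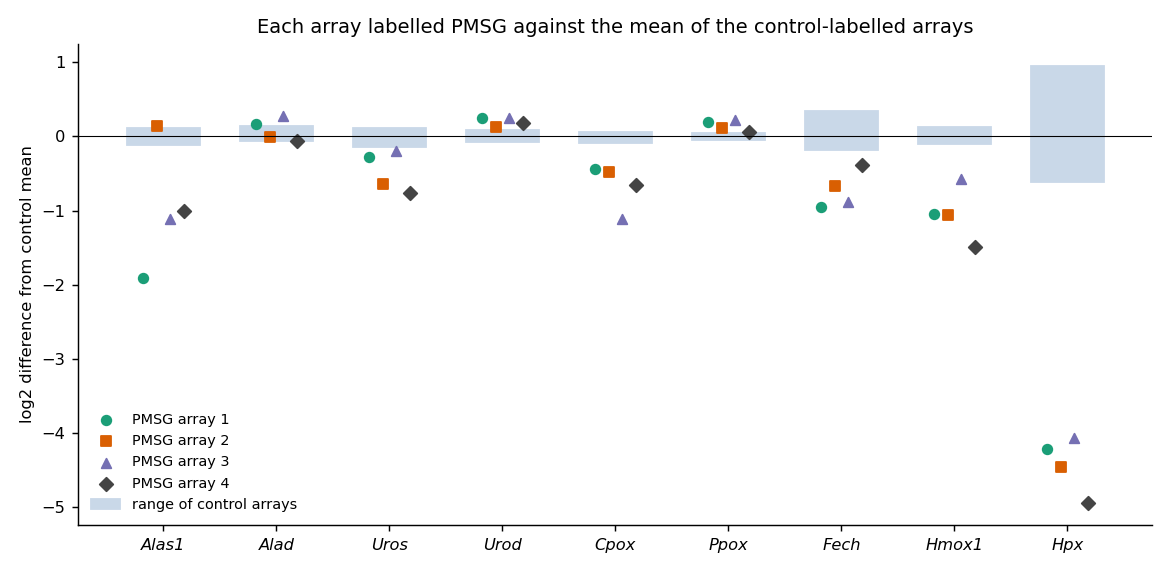
Log2 difference of each PMSG-labelled array from the mean of the 4 control-labelled arrays, for the 9 members (symbols by array); the shaded box is the range of the control-labelled arrays. From highest to lowest, the arrays keep the order 3, 1, 2, 4 for Hpx, Hmox1, Alad, Uros and Ppox, and other orders for the other members. Alas1 has array 2 just above the control range, and Hpx has all 4 arrays more than 4 below the control mean.

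Probes most alike to Hpx, Hmox1 and Alas1 over the 8 arrays were found among 14951 probes of other named genes. The correlation is a description over n = 8 arrays. For Hpx and Hmox1 it follows mainly the gap between the labels, and for Alas1 also the spread among the PMSG-labelled arrays. Hpx was most alike to Slc25a20, for the mitochondrial carnitine carrier (Pearson r = 0.995), Prdx6, for a peroxiredoxin (0.995), and Pcolce, for an enhancer of procollagen processing (0.994). These fell far less, by 0.62, 0.88 and 0.68. Hmox1 was most alike to Ufm1 (0.996), Atp6v1g1 (0.995) and Nme2 (0.994). Alas1 was most alike to Akirin1 (0.991), Pde4d, for a cAMP phosphodiesterase (0.986), and Bcar1 (0.981). Akirin1 stood at -2.94, -1.73, -2.48 and -2.37 on PMSG-labelled arrays and Pde4d at -4.46, -2.32, -3.55 and -3.71, each with array 2 highest, as for Alas1.

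Beyond the members, 92 genes of 10 pathway lists were tested, and 45 passed the limma threshold, 37 lower and 8 higher. Over all tested probes 34.2% passed, 16.6% lower and 17.6% higher, which also stands beside the counts of each list. The median difference was -0.29 beside 0.11 for all probes. The lists were drawn up with earlier results of these data known, so nothing is read from their counts. Of the 100 genes listed, 4 were not matched to a probe and are not analysed here, and 4 were too dim to be tested.

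Heme and porphyrin carriers held 14 tested genes, of which 5 fell and 1 rose. Slc25a39, a mitochondrial carrier linked to glutathione import, fell by 0.64 (SE 0.10, limma adjusted p = 0.00157). Pgrmc1, a heme-binding membrane protein, fell by 0.77 (SE 0.14, limma adjusted p = 0.00392), and its other probes differed by -1.14 and -0.05. Tspo, the outer mitochondrial membrane protein once named the benzodiazepine receptor, fell by 0.48, a call lost under quantile normalization and without control array 1, 3 or 4 or PMSG array 1 or 2. Slc25a37, for the iron carrier mitoferrin, differed by -1.25 and was well above background on 2 of 4 PMSG-labelled arrays; its call was lost with normexp and without control array 2 or 3 or PMSG array 3. Slc46a1, a carrier of heme and folate, rose by 0.32 but not past the threshold under median centring or without control array 1, 3 or 4 or PMSG array 3.

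Iron genes moved both ways. Of 16 tested, 5 rose and 5 fell, with a median of 0.34. Heph and Cp, for the ferroxidases hephaestin and ceruloplasmin, rose by 1.01 (SE 0.13, limma adjusted p = 8.78e-04) and 0.90 (SE 0.12, limma adjusted p = 9.35e-04), and Hamp, for the iron hormone hepcidin, by 1.04 (SE 0.15, limma adjusted p = 0.00150). The others that rose, Tf for transferrin and Slc40a1 for ferroportin, did so by 0.49 and 0.44, and neither passed under median centring. Those that fell were Aco1, Ireb2, Ncoa4, Tfrc and Slc11a2, by 0.44 to 0.76; they include the iron-sensing RNA-binding proteins and the transferrin receptor. Over the alternatives 3 to 6 iron genes rose and 3 to 5 fell. The other Slc11a2 probes differed by -0.93 and -0.92, and Ireb2 lost its call with normexp, at -0.12. Calls were lost for Tfrc without control array 1, 2 or 4 or PMSG array 3, and for Slc11a2 without control array 1, 3 or 4 or PMSG array 2 or 3. Slc40a1 lost its call without the filter on dim probes, and without any of the control arrays or PMSG array 1 or 2. Of 11 mitochondrial iron-sulfur genes tested, 6 fell and 0 rose. Among these Bola3, a late assembly factor, fell by 0.93 (SE 0.11, limma adjusted p = 4.88e-04) and Glrx5, a glutaredoxin of the same route, by 0.50 (SE 0.09, limma adjusted p = 0.00292). Fdxr, for ferredoxin reductase, which passes electrons to mitochondrial P450 enzymes, fell by 0.79 (SE 0.13, limma adjusted p = 0.00260).

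**Figure D5:**
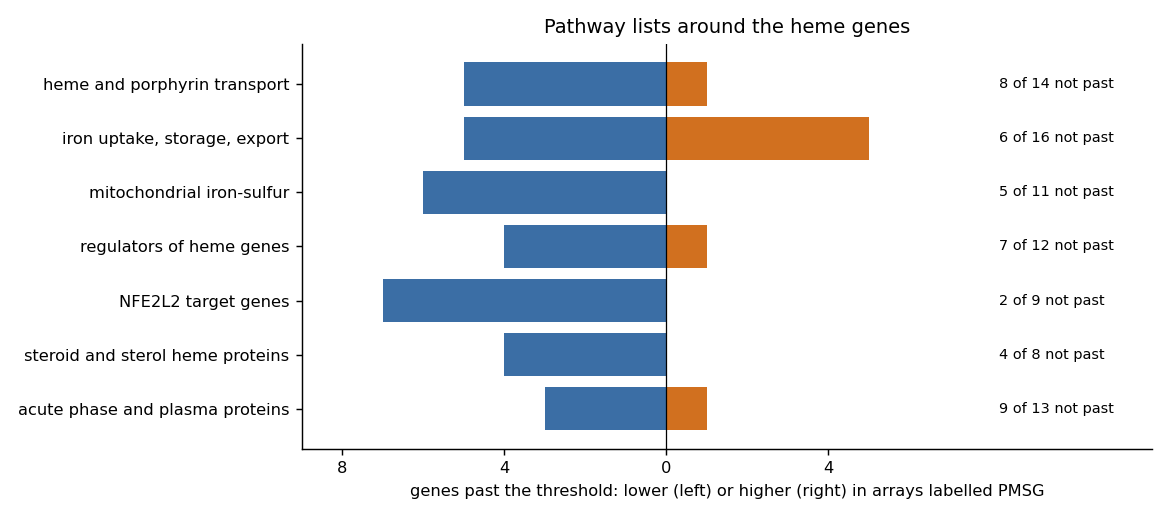
Number of tested genes past the limma adjusted p threshold of 0.05 in 7 lists around the heme genes, lower in PMSG-labelled arrays to the left (blue) and higher to the right (orange); the text at the right gives those not past it. Iron genes are split 5 and 5, and the NFE2L2 target list has 7 lower and 0 higher.

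Of 12 regulators of heme genes tested, 4 fell and 1 rose. Mafg and Mafk encode small MAF proteins, partners of NFE2L2 and BACH1 on the antioxidant response element. The Hpx stretch held only a letter match to the core of that element, and binding there was not tested. Mafg fell by 0.50 (SE 0.10, limma adjusted p = 0.00506) and Mafk by 1.03 (SE 0.26, limma adjusted p = 0.0176). Nfe2l2 fell by 0.36 (limma adjusted p = 0.0230), a call lost under quantile normalization and without control array 1 or 4 or PMSG array 1. Lonp1, for the mitochondrial protease that degrades the Alas1 protein, fell by 0.37 (SE 0.09, limma adjusted p = 0.0119), also lost under quantile normalization. Nr1d2, a heme-binding nuclear receptor, rose by 0.85 but not past the threshold under median centring or quantile normalization. Bach1, which represses Hmox1, differed by -0.74 (SE 0.36, limma adjusted p = 0.151), or by 0.01 with normexp. Its probe was dim, at -6.45 to -5.52 on control-labelled and -7.61 to -6.12 on PMSG-labelled arrays. The dimmest spot well above background lay at -6.70 to -6.16 on the 8 arrays, so this difference is poorly measured. Nrf1 differed by 0.09 (limma adjusted p = 0.613), or by -0.08 under median centring.

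NFE2L2 is known to induce Hmox1, and 9 of its other target genes were tested. Of these 7 fell and 0 rose. Me1, for malic enzyme, fell by 1.66 (SE 0.12, limma adjusted p = 7.64e-05) and Slc7a11, for a cystine carrier, by 1.25 (SE 0.19, limma adjusted p = 0.00165). Gclm and Srxn1 did not pass. Srxn1, for sulfiredoxin, stood at 2.09, 1.59, 1.76 and 1.83 against -0.77, 2.82, -0.69 and -0.25 (limma adjusted p = 0.143), with PMSG array 2 above all controls as for Alas1.

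Heme proteins of steroid and sterol synthesis, with their electron donors, held 8 tested genes, of which 4 fell and 0 rose. Cyp11a1, the side-chain cleavage enzyme, stood at 6.74, 6.51, 6.56 and 6.57 against 3.26, 3.13, 4.13 and 2.42 and fell by 3.36 (SE 0.31, limma adjusted p = 2.32e-04). Cyp51, lanosterol demethylase, fell by 2.58 (SE 0.13, limma adjusted p = 2.64e-05), and Por, for the reductase that serves microsomal P450 enzymes, by 0.93 (SE 0.11, limma adjusted p = 5.79e-04). Cyp27a1, a mitochondrial sterol hydroxylase, fell by 0.49, but not past the threshold without control array 4. Cyp17a1 differed by -0.22 (SE 0.23, limma adjusted p = 0.483).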

How the data were processed

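Ovary RNA of 4 control-labelled and 4 PMSG-labelled replicates was measured on 1-colour arrays with 58717 non-control spots of 30367 probes. Spot intensity was extracted by the authors with Agilent Feature Extraction 11.5.1.1, per the file headers. A deposited table of log2 values served as an alternative, after each column had been matched to its own array by correlation; 0 columns of values were left unused.

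Outlier and control spots were left out, log2 processed signals of a probe's spots were averaged, and the array's 75th percentile over all probes was subtracted. Probes well above background (at least 0.5 of their spots) on at least 4 of 8 arrays were tested, 25303 in all. The labels were compared in limma 3.58.1 under R 4.3.3 by lmFit and eBayes without covariates. P-values were adjusted over the 25303 probes by Benjamini-Hochberg, and the threshold was 0.05. No spot was saturated. The number of arrays limits the precision. The procedure was tested on simulated data.

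A gene with several probes was represented by its brightest. The members, the lists and the rule for named genes were chosen with earlier results of these data known. Named are all members, the 3 genes of each list with the smallest adjusted p past the threshold, genes needed beside counts of 5 or fewer, and the 3 probes most alike to Hpx, Hmox1 and Alas1. Nfe2l2, Bach1, Nrf1, Hmox2, Lrp1, Cd163, Srxn1, Cyp17a1, Lcn2, Fgg, C3, Serpina3n, Alb, Ahsg and the globin genes were named in addition, in part after their values were seen. Some list genes that this rule names are not reported here. Ftl1, Isca2 and Fdx2 were reached through RefSeq synonyms. Replicate numbers were not taken as pairs in the main fit. The alternatives covered background correction, scaling, filters, the deposited values, array weights, slide row, a replicate block, averaging of probes and leaving out each array.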

Additional observations from a re-analysis of the deposited data

Results flagged for a closer look

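Among 66 groups of 4 values examined, over the members and the named list genes, 4 had 1 array far from the others, by the gap to the nearest array as a share of the range. Chance gives about 1 in 20 groups, here 3.3. Alad on control array 1 was at 5.15 against 4.95 to 4.98 on the other control-labelled arrays (gap 0.831 of the range). Fdxr on PMSG array 4 was at 4.72 against 5.18 to 5.22 (gap 0.911). Pgrmc1 on PMSG array 3 was at 1.47 against 1.88 to 1.96 (gap 0.840). Por on control array 1 was at 1.67 against 1.77 to 1.78 (gap 0.901). Fdxr, Pgrmc1 and Por passed the threshold under all 18 alternatives, which include leaving out that array.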

How the results depend on the processing

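The count of probes past the threshold, 8658, was lowest, 6552, when control array 4 was left out and highest, 11382, when PMSG array 4 was. The members past it numbered 4 to 6 against 5, and the pathway genes 38 to 51 against 45. No result past the threshold changed direction; Alad (-0.07) and Ppox (-0.02), which were not past it, turned sign under median centring. Hpx, Hmox1, Cpox and Fech passed under all 18 alternatives. Uros passed under 8 (not with normexp, without the filter on dim probes, with either block, or without any of the control arrays or PMSG array 2 or 4), Alas1 under 2 (array weights and without PMSG array 2) and Urod under 1 (quantile normalization), of 18 each; the cause was not tested. The Mafk difference ran from -1.30 to -0.57 and its adjusted p from 0.00137 to 0.0485.

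Same-numbered arrays deviated from their group means with correlations of 0.0444, 0.0361, 0.183 and -0.0192 across probes. Differently numbered arrays were not correlated, so these values cannot tell whether the replicate numbers mark pairs. The replicate block gave 7346 probes, 4 members and 40 pathway genes past the threshold. Under it Nfe2l2, Slc46a1, Tfrc, Slc11a2, Slc40a1 and Cd68 missed the threshold. Lonp1 also did, at -0.37, as under quantile normalization at -0.21.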

Other observations

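Alas1 shared with few probes the arrangement in which 1 PMSG-labelled array lies with the controls. This was looked for after its values were seen, as probes with that array at or above the lowest control-labelled array and the other 3 at least 0.5 (log2) below it. PMSG array 2 was such an array for 22 of 25303 probes (0.0869%), among the listed genes for Alas1 and Srxn1. PMSG array 1 was so for 12 probes, array 3 for 16 and array 4 for 13, with 0 listed genes.

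Fdx1, for the ferredoxin that donates electrons to Cyp11a1, was among the iron-sulfur genes that fell and was named after its values were seen. It stood at 6.32, 6.02, 6.12 and 6.03 against 4.99, 5.39, 5.17 and 4.17, a fall by 1.19 (SE 0.25, limma adjusted p = 0.00713). Fth1, for the ferritin heavy chain, stood at 6.90, 6.92, 6.89 and 6.77 against 7.32, 7.35, 7.40 and 6.90 and did not pass (difference 0.37, SE 0.13, limma adjusted p = 0.0545).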
